A study of Homo sapiens with 66 samples.

Results

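The 48 genes described here encode ribosome biogenesis factors, proteins that build ribosomal subunits but are not part of the finished ribosome. They were chosen by name, by a rule that uses no measured value, although earlier results of these data were known when the list was drawn up. All 48 were matched to gene identifiers among the 58721 in the count tables. All 48 also passed the filter on low counts in each of 3 experiments. RNA was sequenced from A375, an established human melanoma line with mutant BRAF, in 66 libraries that form 22 groups of 3 replicates. The series concerns Mediator, through which transcription factors act on RNA polymerase II, and its part in melanoma cell plasticity and drug resistance.

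The Mediator experiment had 42 libraries. Its cells carried a control guide against GFP, or 1 of 2 guides against MED12 (kinase module), MED19 (middle module) or MED23 (tail module), and received DMSO or 1 µM vemurafenib, an inhibitor of mutant BRAF, for 24 h. The SOX10 experiment had 12 libraries from control cells or cells with guide 1 against MED23, each with an empty vector or with overexpression of SOX10, a neural crest and melanocyte transcription factor. The HDAC3 experiment had 12 libraries from control cells and from cells with HDAC3 knockout, MED23 knockout or both (labelled dKO), HDAC3 being the deacetylase of the NCOR corepressor. In the table of that experiment the control columns carry the name GFP; they were assigned to the control samples because no other sample was left for them, and each of its comparisons with control cells rests on that assignment. Nothing in the labels tells whether the replicates came from separate cultures, so p-values measure only the spread between these libraries.

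Total counts per library were 65.88 to 211.79 M in the Mediator experiment, 24.87 to 30.77 M in the SOX10 experiment and 58.84 to 106.19 M in the HDAC3 experiment. Transcripts of the targeted genes were lower in the cells labelled as knockouts: in DMSO, MED12 was 120 ± 1.73 CPM (counts scaled to library size, mean ± SD, n = 3) in control cells and 34.4 and 24.6 with its guides, MED19 was 27.0 against 12.3 and 13.7, and MED23 was 37.0 against 17.6 and 16.5. HDAC3 was 57.9 CPM in control cells and 29.6 in HDAC3 knockout cells. These values are of RNA, and loss of the proteins was not measured here. The summed level of 9 melanocyte markers lay between 485 and 2420 CPM over the libraries. In control cells with DMSO, SOX10 was at 771 CPM and MITF at 73.8, while the pigment genes MLANA (1.37), PMEL (0.804) and TYR (0.0181) were near 0. Among markers of other cell types, KRT14 reached 17.6 CPM and LYZ 20.8, and the liver marker ALB did not exceed 0.0851.

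Ribosomes are assembled in the nucleolus. RNA polymerase I transcribes a long ribosomal RNA precursor, small nucleolar ribonucleoproteins (snoRNPs) guide its chemical modification, and large sets of assembly factors cut and fold it together with ribosomal proteins into the small and large subunits. Growth signals, MYC among them, are known to raise transcription of these factors, and their output is high in many tumours.

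The level of the 48 genes spanned a wide range in control cells with DMSO. On a scale that divides counts by exon length as well as by library size (RPKM), levels ran from 2.01 to 684 with a median of 34.0. The most abundant were NPM1 (684 RPKM), a nucleolar chaperone, NCL (207), the RNA-binding protein nucleolin, the helicase DDX21 (149) and NOLC1 (124), a snoRNP assembly scaffold. The lowest were DDX10 (7.40), PPAN (5.67) and NOP2 (2.01). NOP2 and PPAN share 54.4% and 59.8% of their exonic bases with genes on the same strand, so their counts are uncertain, and NPM1 has 45 named pseudogenes that could share its reads.

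Promoter sequences, which place a shared feature beside the drug response, were found for 41 of the 48 genes in RefSeq entries of GRCh38.p14 that run from 250 bases before to 50 bases after a start. The E-box CACGTG, a sequence that MYC with MAX and many related factors can bind, was found on either strand in 17 of the 41 (41.5%). It was found in 7.26% of all 35116 entries and in 10.8% of 15276 other coding genes. Of 18 matches, 16 lay within 50 bases of the start. The 8 genes with this motif that were reduced most by vemurafenib in control cells are shown as 30 bases of the coding strand, 5′ to 3′, with the motif in capitals.

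LYAR: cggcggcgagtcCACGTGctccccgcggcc
EBNA1BP2: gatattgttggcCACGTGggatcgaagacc
MRTO4: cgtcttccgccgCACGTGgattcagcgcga
GNL3: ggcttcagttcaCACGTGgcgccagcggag
BYSL: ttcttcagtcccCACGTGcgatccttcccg
PUS7: gtcgctgcgccgCACGTGtgcgagcccggc
RRP9: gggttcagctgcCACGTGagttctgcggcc
NOC3L: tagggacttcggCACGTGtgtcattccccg

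In the same order these lie at chr4:4290068-4290097 (minus strand), chr1:43172790-43172819 (minus), chr1:19251807-19251836 (plus), chr3:52686026-52686055 (plus), chr6:41921515-41921544 (plus), chr7:105522226-105522255 (minus), chr3:51941892-51941921 (minus) and chr10:94362903-94362932 (minus). The EBNA1BP2 match begins 237 bases before the start, while that of RRP9 begins 5 bases before it. Genes with the motif had a median log2 change under vemurafenib in control cells of -1.56 (range -2.64 to -1.05), and those without it had -1.29 (range -2.17 to -0.43), so the ranges overlap widely. Other motifs searched on both strands were CACGCG, found in 31.7% of the 41 genes and 18.3% of other coding genes, the palindromic NRF1 motif (7.32% and 1.94%) and the ETS motif CCGGAAG (39.0% and 16.6%). Genes with CACGCG had a median log2 change of -1.1, and those without it had -1.46. With and without the NRF1 motif (3 genes with it) the medians were -1.0 and -1.38, and for ETS -1.41 and -1.29. By median the fall was thus smaller with CACGCG or NRF1 than without, and larger with ETS. A link between any motif and the response was not tested. A match is a description of these letters and does not show that a factor was bound.

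The first comparison asks how the genes respond to BRAF inhibition in control cells. All 48 fell under vemurafenib, with a median log2 fold change of -1.43, and the 3 treated libraries lay below the 3 DMSO libraries for each of the 48, as they did for 32.2% of all genes tested. Genes are called at an adjusted p under 0.05, here by edgeR's quasi-likelihood test over 27453 genes. Over all genes tested, 30.3% were called lower and 35.8% higher, with a median change of 0.11. The fall was at least 1.5-fold for 47 of the 48, against 18.3% of all genes. Summed over the 48 genes, their share of all counts was 1.10% to 1.13% in the DMSO libraries and 0.524% to 0.534% in the vemurafenib libraries. The share of mitochondrial mRNA rose in the same comparison, from 1.06% to 1.15% of counts with DMSO to 2.17% to 2.49% with vemurafenib. Of the 9 melanocyte markers, 8 rose and 1 fell in the same comparison, and the pigment gene DCT went from 2.39 ± 0.255 to 848 ± 24.0 CPM. The part of either in the fall was not tested. In bulk RNA, fewer cells of a kind and less RNA per cell cannot be told apart.

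**Figure D1:**
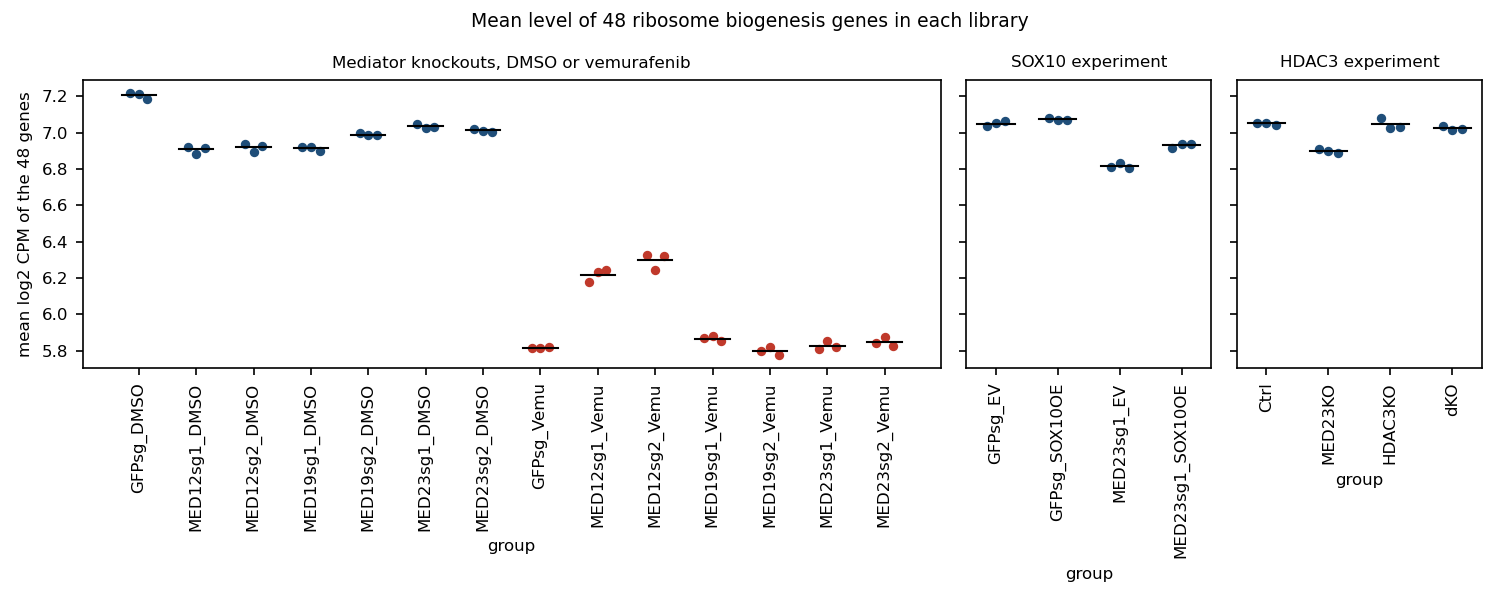
Mean log2 CPM of the 48 genes (vertical axis) in each library (points), by group; black lines are group means, blue points are cells without vemurafenib and red points are vemurafenib libraries. Every vemurafenib group lies below every DMSO group, and the MED12 guides are the highest of the vemurafenib groups.

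The snoRNP proteins had a median of -1.71 on the log2 scale. DKC1, the pseudouridine synthase of the H/ACA class, was at 283, 273 and 269 CPM with DMSO and at 60.1, 62.5 and 60.3 with vemurafenib. The groups were far apart, and the log2 change of DKC1 was -2.17 ± 0.031 (SE, adjusted p = 5.2e-46). NOP56, a core protein of the C/D class, went from 279, 283 and 274 CPM to 84.1, 85.0 and 86.7, a log2 change of -1.71 ± 0.027. The 2'-O-methyltransferase FBL was the least reduced of the 5 genes, from 255, 234 and 234 CPM to 108, 114 and 114 (log2 change -1.10 ± 0.031).

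Among the abundant nucleolar proteins, LYAR, a nucleolar zinc-finger protein, had the deepest fall of all 48 genes. LYAR was at 126, 125 and 121 CPM with DMSO and at 20.0, 20.0 and 19.7 with vemurafenib, which left 16.1% of the control level (log2 change -2.64 ± 0.043, adjusted p = 1.7e-43). NPM1 fell least in this role, from 2700, 2570 and 2580 CPM to 1430, 1460 and 1450 (log2 change -0.85 ± 0.026). NCL went from 1500, 1400 and 1400 CPM to 501, 511 and 499, a log2 change of -1.51 ± 0.034. The treated libraries of these 3 genes differed from each other by much less than from DMSO.

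The 16 factors of small subunit maturation had a median log2 change of -1.31, from -1.66 to -0.43. BYSL, which acts in late maturation of the small subunit, was at the low end. NOB1, the endonuclease that makes the final cut at the 3′ end of 18S ribosomal RNA, changed least of all 48 genes. NOB1 was at 72.5, 77.5 and 74.0 CPM with DMSO and at 52.7, 56.6 and 56.6 with vemurafenib, which left 74.1% (log2 change -0.43 ± 0.036, adjusted p = 5.1e-15). NOB1 shares 20.2% of its exonic bases with an opposite-strand gene, and the strand setting of the counting is not given in the sources used here. The same limit holds for other members, among them TSR1 (20.8%), NIP7 (20.2%), NOP16 (20.0%), EBNA1BP2 (18.8%) and FTSJ3 (16.8%).

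The PeBoW complex (PES1, BOP1 and WDR12), needed for processing of the large subunit precursor, had a median of -1.36. The 16 other large subunit factors had a median of -1.42. NOP16, a nucleolar protein of the large subunit pathway, was at 68.1, 65.0 and 63.5 CPM with DMSO and at 15.2, 14.5 and 14.8 with vemurafenib (log2 change -2.14 ± 0.046). At the other end, FTSJ3, a 2'-O-methyltransferase, went from 371, 374 and 369 CPM to 236, 240 and 236 (log2 change -0.65 ± 0.026). The RNA polymerase I genes were the least reduced role by median (-0.80): POLR1B, its second largest subunit, had -1.44, the largest subunit POLR1A had -0.80, and the initiation factor RRN3 had -0.65. PUS7, a pseudouridine synthase, had -1.65. The 8 genes that hold 27 snoRNA genes within them, such as GNL3 and NOP56, had a median of -1.60, and the other 40 had -1.34.

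**Figure D2:**
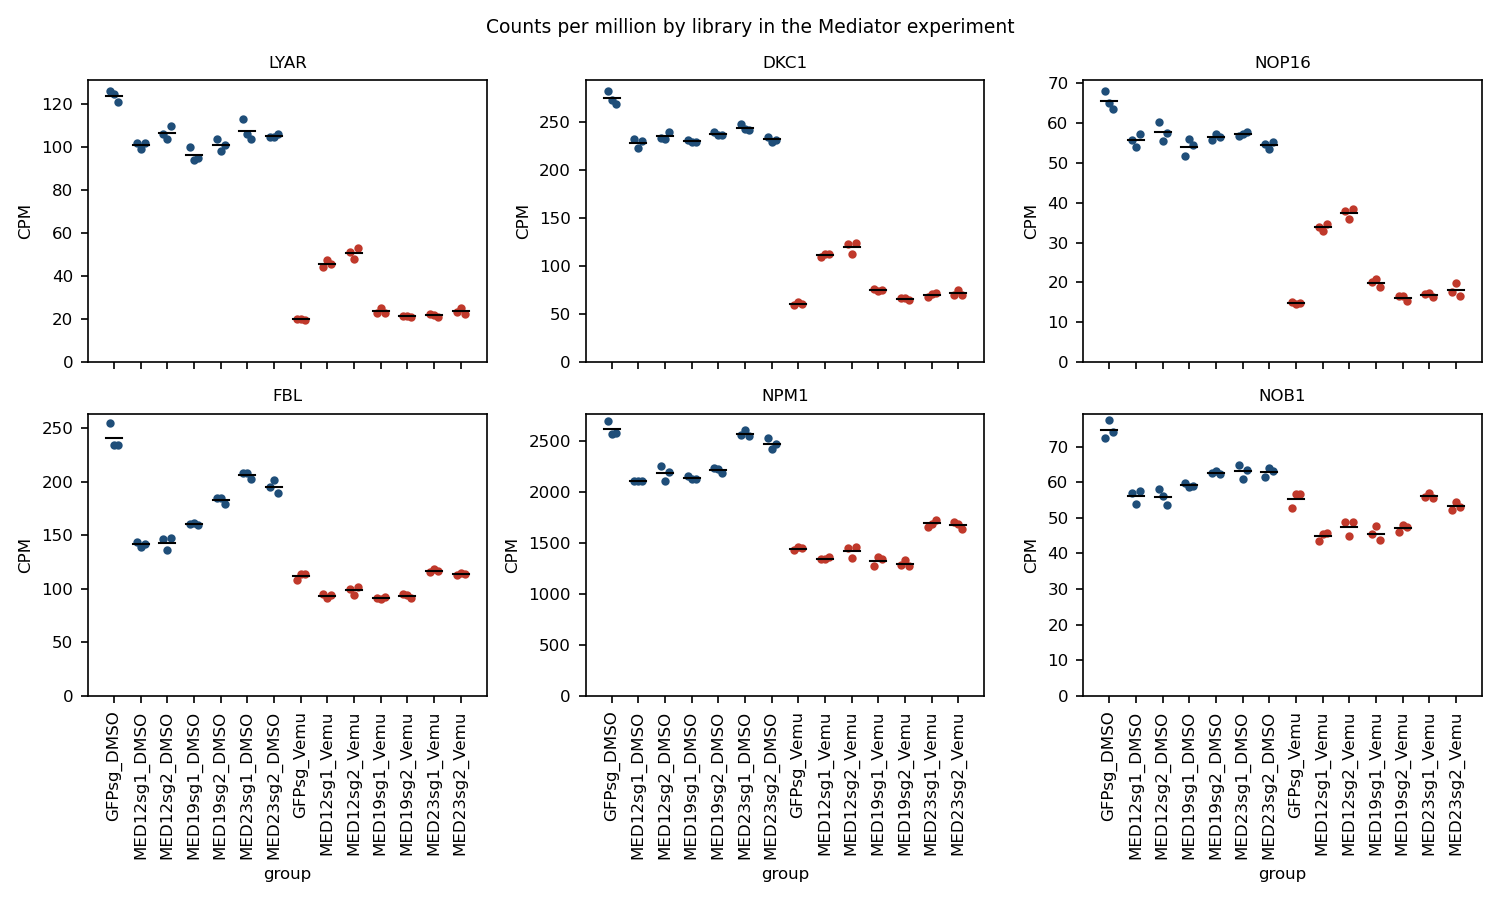
CPM of LYAR, DKC1, NOP16, FBL, NPM1 and NOB1 in each library of the Mediator experiment (points; lines are group means; blue DMSO, red vemurafenib; each vertical axis starts at 0). LYAR, DKC1 and NOP16 are higher with the MED12 guides than with the control guide under vemurafenib, while FBL and NOB1 are lower.

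Further genes of the pathway were read from 4 lists. Of 83 other ribosome biogenesis factors, 79 fell and 1 rose (median log2 change -0.96). TCOF1, the nucleolar protein treacle, was at 377, 399 and 382 CPM with DMSO and at 84.2, 88.2 and 88.7 with vemurafenib (-2.15), while NOP53 rose (0.36). Of 32 genes of RNA polymerases I and III and their factors, 27 fell and 3 rose, from -1.83 for TAF1A to 1.30 for POLR3GL. Of 13 genes of the RNA exosome, which trims ribosomal RNA ends, 10 fell and 1 rose (MPHOSPH6 at -1.89, EXOSC10 at 0.46).

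The 78 cytosolic ribosomal proteins, the parts of the ribosome itself, were split: 37 fell, 20 rose and 21 were not called, with a median of -0.05. Their extremes were RPL17 (-1.40) and RPL28 (0.34). Their summed share of counts was 5.49% to 5.66% in the DMSO libraries of control cells and 6.19% to 6.37% in the vemurafenib libraries. On the TMM scale used for CPM their sums overlapped, with 60371 to 62177 CPM in DMSO and 59409 to 61749 in vemurafenib libraries, so the direction of the ribosomal protein sum depends on the scaling. MYC was at 23.4, 22.7 and 23.7 CPM with DMSO and at 2.34, 2.28 and 2.67 with vemurafenib (log2 change -3.26 ± 0.099). Of the 12 genes of the MYC network, 7 fell and 4 rose. The part of MYC in the fall of the assembly factors was not tested.

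The next comparisons ask whether loss of a Mediator subunit changes this drug response. All 48 genes also fell under vemurafenib in cells with MED12, MED19 or MED23 guides, each without overlap between the 6 treated and the 6 DMSO libraries. Of all genes tested, 23.7%, 24.2% and 24.7% were lower without overlap in these comparisons. By the test, 30.8%, 32.6% and 32.1% were called lower. The size differed: the median log2 change was -0.67 in MED12 knockout cells, -1.12 in MED19 knockout cells and -1.21 in MED23 knockout cells. As a percentage of the log2 change in control cells, the median response was 48.2% with MED12 loss (from 26.7% for LAS1L to 76.4% for UTP20), 80.7% with MED19 loss (59.9% to 99.3%) and 83.5% with MED23 loss (46.6% for NOB1 to 115% for UTP20). The difference itself was tested as an interaction term. With MED12 loss the fall was smaller for 48 of 48 genes (24.9% of all genes had a positive interaction), with a median of 0.72 and 34 genes past 1.5-fold (11.5% of all genes). With MED19 loss it was smaller for 44 (17.4% of all genes, median 0.27). With MED23 loss it was smaller for 37 (18.5% of all genes, median 0.23) and larger for 2, UTP20 and RRS1 (16.2% of all genes). The 3 interactions share the control libraries, and the knockouts were not tested against each other.

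**Figure D3:**
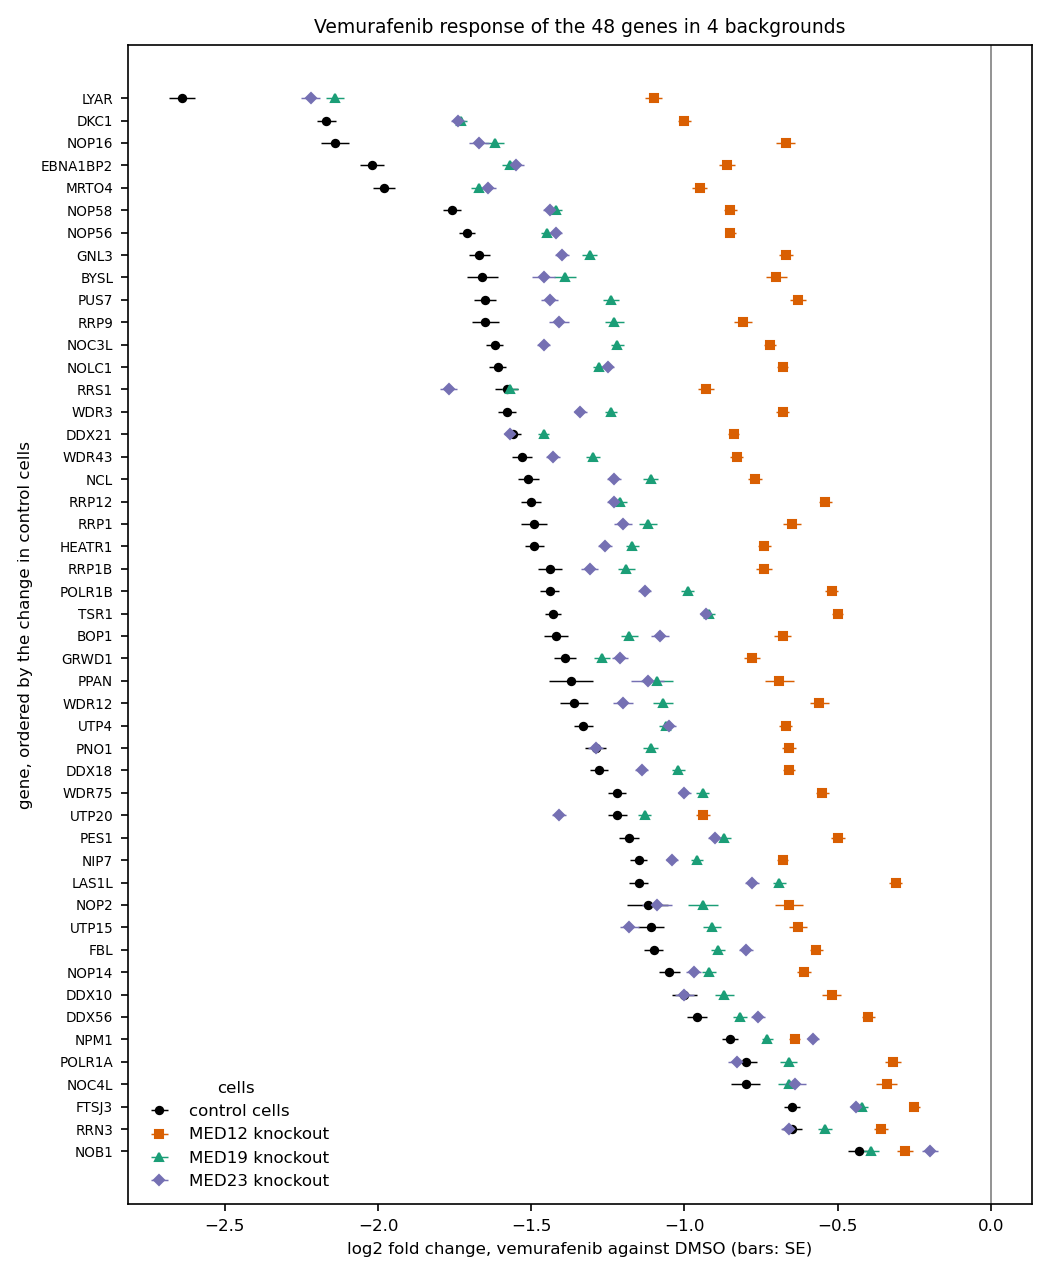
log2 fold change between vemurafenib and DMSO (horizontal axis, bars are SE) for the 48 genes, ordered by the change in control cells, in control cells and in cells with MED12, MED19 or MED23 knockout. All values lie below 0, and the MED12 knockout values, with a median of -0.67, lie nearest to it for most genes.

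The order of the genes was largely kept. Across the 48 genes, Pearson's r between the response in control cells and that in knockout cells was 0.80 for MED12, 0.96 for MED19 and 0.93 for MED23. These comparisons have no library in common, but genes are not independent replicates, so r is given as a description. LYAR and DKC1 were among the 3 most reduced genes in control cells and in each of the 3 knockouts, and NOB1 and FTSJ3 were among the 3 least reduced.

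Loss of MED12 lowered these genes without drug and left most of them higher than control cells with drug. In DMSO, 44 of the 48 were lower than in control cells (27.0% of all genes were) and NIP7, a factor of large subunit maturation, was higher (27.9% of all genes), with a median log2 change of -0.27. FBL had the largest difference, at 144, 139 and 142 CPM with guide 1 and 146, 136 and 147 with guide 2, against 255, 234 and 234 in control cells (-0.76 ± 0.026, adjusted p = 1.4e-29). BOP1 was next, at -0.61 ± 0.033. They were the only members past 1.5-fold (9.42% of all genes). PNO1, FTSJ3 and RRN3 were not called. Of the 78 ribosomal proteins, 78 were lower in DMSO with MED12 loss, with a median of -0.34.

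Under vemurafenib the picture turned: 43 of the 48 genes were higher in MED12 knockout than in control cells (32.5% of all genes were) and 4 were lower (29.6%), with a median of 0.41. At 1.5-fold, 14 genes were higher (16.5% of all genes) and 0 lower (15.9%). LYAR was at 44.2, 47.7 and 45.7 CPM with guide 1 and 51.5, 47.9 and 53.3 with guide 2, against 20.0, 20.0 and 19.7 in control cells, a log2 difference of 1.28 ± 0.038 (adjusted p = 2.6e-32). NOP16 followed at 33.8, 33.0 and 34.7 CPM and 38.0, 35.8 and 38.5 CPM against 15.2, 14.5 and 14.8, a log2 difference of 1.26 ± 0.042. Every MED12 library of these genes was above every control library, as was the case for 30.6% of all genes.

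The 4 genes that stayed lower were NOB1, UTP20, FBL and NPM1, with log2 differences of -0.26, -0.26, -0.22 and -0.07. UTP20, a large scaffold of the small subunit processome, was at 66.7, 72.5 and 72.1 CPM with guide 1 and 74.0, 70.8 and 70.5 with guide 2, against 85.4, 84.3 and 85.4. Of the 78 ribosomal proteins, 70 were lower and 4 higher under drug with MED12 loss (median -0.29), while most of the assembly factors were higher. MYC, measured in the same libraries, was lower with MED12 loss in DMSO (log2 difference -1.69 ± 0.072), fell less with drug (-0.62 ± 0.065), and was higher than in control cells under drug (0.94 ± 0.091). Its means under drug were 4.35 and 4.98 CPM with the MED12 guides and 2.43 in control cells. Under drug, 8 of the 9 melanocyte markers were lower with MED12 loss and 1 was higher. DCT was at 9.46 and 2.85 CPM with the guides, against 848 in control cells. Mitochondrial mRNA took 1.64% to 2.06% and 1.48% to 1.83% of counts with the guides, against 2.17% to 2.49%. The part of MYC, of these markers and of mitochondrial mRNA in the result was not tested.

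Loss of MED19 or MED23 also lowered the genes in DMSO, but their levels under drug were mixed. In DMSO, 45 of 48 genes were lower with MED19 loss (20.2% of all genes, median -0.26) and 46 with MED23 loss (18.5% of all genes, median -0.18), and no member was called higher (20.4% and 18.4% of all genes were). FBL was at 160, 161 and 159 CPM and at 185, 185 and 179 CPM with the MED19 guides (-0.49 ± 0.026). POLR1B, at 168, 175 and 180 CPM in control cells, was at 135, 134 and 134 CPM and at 130, 131 and 133 CPM with the MED23 guides, the largest difference for that subunit (-0.39 ± 0.026). The 3 knockouts share these control libraries.

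Under vemurafenib, MED19 loss left 17 genes higher (23.1% of all genes) and 13 lower (20.7%), with a median of 0.02. MED23 loss left 18 higher (24.6%) and 15 lower (22.7%), also with a median of 0.02. Both directions were called somewhat above the share of all genes, a share that also covers genes with low counts. At 1.5-fold no member was called in either comparison. Which direction was more frequent depended on the guide. With MED19 guide 2 alone 12 were higher and 16 lower, and with MED23 guide 1 alone 14 were higher and 15 lower. TSR1, a late small subunit factor, was higher with both subunits lost, by 0.26 for MED19 and 0.34 ± 0.023 for MED23. UTP20 was lower with MED23 loss, at 65.2, 64.6 and 61.8 CPM and at 62.2, 61.8 and 61.2 CPM against 85.4, 84.3 and 85.4 (-0.44 ± 0.027). MYC was lower than in control cells under drug with MED19 loss (-0.95 ± 0.10) and MED23 loss (-0.33 ± 0.10).

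MED23 loss was measured in 3 experiments that share the cell line but no libraries. Against their own control cells, 46 of 48 genes were called lower in DMSO (18.5% of all genes) and 44 with the empty vector (22.3% of all genes). In the HDAC3 experiment 33 were called lower (12.0% of all genes). The medians were -0.18, -0.24 and -0.16. A total of 32 genes were called lower in all 3 experiments (11.2% of the 17953 genes tested in all 3 were), 12 in 2, 3 in 1 and 1 (FTSJ3) in none. The log2 change was below 0 in all 3 for 46 genes, a count that was not made over all genes. In the single experiments it was below 0 for 47, 48 and 47 of the 48. Over all genes tested it was below 0 for 13445 of 27453, 9035 of 18009 and 10567 of 21139. Across the 48 genes, r was 0.73 between the Mediator and SOX10 experiments, 0.78 between the Mediator and HDAC3 experiments and 0.69 between the SOX10 and HDAC3 experiments, given as a description. BOP1 was at -0.36 ± 0.033, -0.33 ± 0.043 and -0.39 ± 0.072, and was at 69.3, 61.7 and 64.6 CPM in control against 50.1, 52.9 and 45.8 in MED23 knockout cells of the HDAC3 experiment. MYC was lower in each (-1.33, -1.10 and -0.93). Without replicate 2 of all its groups, the count in the HDAC3 experiment was 6.

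**Figure D4:**
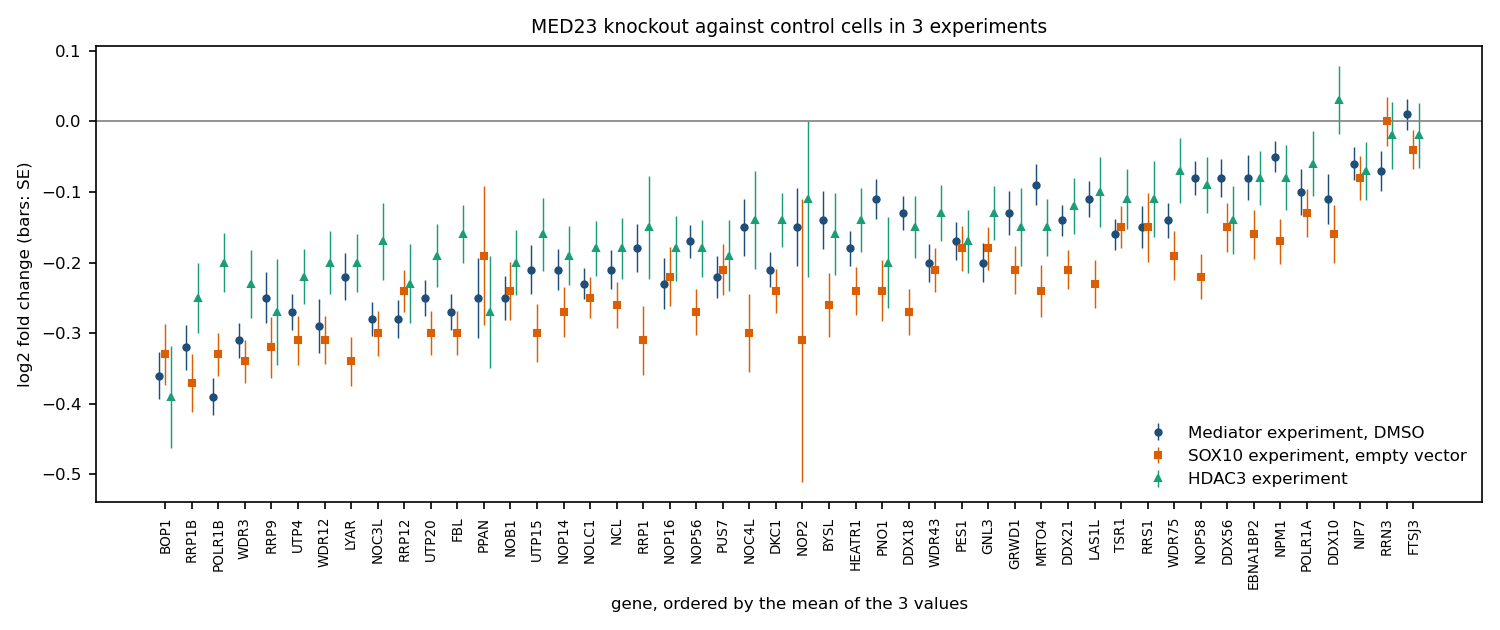
log2 fold change between MED23 knockout and control cells (vertical axis, bars are SE) for the 48 genes in 3 experiments, ordered by the mean of the 3 values. Most points lie between 0 and -0.4, and FTSJ3 lies nearest to 0 by that mean.

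With SOX10 overexpression, few of the genes changed in control cells and more of them rose in MED23 knockout cells. SOX10 RNA itself was at 525 ± 9.54 CPM with the empty vector and 600 ± 11.5 with overexpression in control cells (log2 change 0.19 ± 0.030), and at 246 ± 6.24 and 429 ± 6.56 in MED23 knockout cells (0.80 ± 0.030). Its rise was thus unequal between the backgrounds (interaction 0.61 ± 0.042), and the part of this in the results below was not tested. In control cells 6 of 48 rose (11.6% of all genes) and 1 fell (11.0%), with a median of 0.03, so the share is near that of all genes; without replicate 2 the counts were 0 and 1. The gene that fell was FTSJ3 (-0.12). In MED23 knockout cells 29 rose (21.2% of all genes) and 1 fell (20.7%), with a median of 0.12. UTP20 was at 153, 154 and 151 CPM with the empty vector and at 192, 184 and 189 CPM with SOX10 overexpression in MED23 knockout cells. The same values in control cells were 187, 195 and 185 CPM and 187, 188 and 184 CPM. The knockout libraries without SOX10 overexpression stood below the other 9, and the interaction of UTP20 was 0.32 ± 0.044 (adjusted p = 3.4e-06). The interaction was positive for 13 genes (7.64% of all genes) and negative for 0 (7.04%); without replicate 2, and without replicate 3, the count was 2. Of the ribosomal proteins, 63 of 78 rose with SOX10 overexpression in MED23 knockout cells. Their summed level there was 57432 to 59553 CPM with the empty vector and 60051, 68125 and 68981 CPM with overexpression. Replicate 1 with overexpression thus lay close to the empty-vector libraries.

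With HDAC3 knockout in control cells, 7 genes were higher (21.2% of all genes) and 9 lower (20.9%), with a median of -0.01. The other 32 were not called, and both shares of the 48 are below those of all genes. Without replicate 2 the counts were 6 and 2. NOP56 was at 365, 353 and 352 CPM against 288, 300 and 295 in control cells (0.28 ± 0.040, adjusted p = 5.4e-06), and RRN3 was at 131, 135 and 136 CPM against 110, 108 and 107 (0.31 ± 0.047). LAS1L, a factor of large subunit precursor processing, was lower (-0.24). In MED23 knockout cells, loss of HDAC3 raised 25 genes (19.1% of all genes) and lowered 5 (18.9%), with a median of 0.14. NOP56 was at 386, 361 and 364 CPM with both knockouts against 263, 260 and 257 with MED23 knockout alone (0.51 ± 0.040, adjusted p = 9.7e-10). GNL3, the nucleolar GTPase nucleostemin, was at 328, 331 and 337 CPM against 244, 240 and 244 (0.45 ± 0.038).

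Cells with both knockouts, set against control cells, had 10 genes higher (18.2% of all genes) and 15 lower (18.4%), with a median of -0.03. Without replicate 2 there were 7 and 8. The interaction of the HDAC3 and MED23 knockouts was positive for 21 genes (10.0% of all genes), led by NPM1 (0.37), PNO1 (0.34) and UTP4 (0.32), and negative for 1, DDX10 (10.5% of all genes). Without replicate 2 it was called for 4 genes, and without replicate 3 for 12. The log2 changes of the 48 genes in the 9 comparisons of the SOX10 and HDAC3 experiments lay between -0.39 and 0.51.

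**Figure D5:**
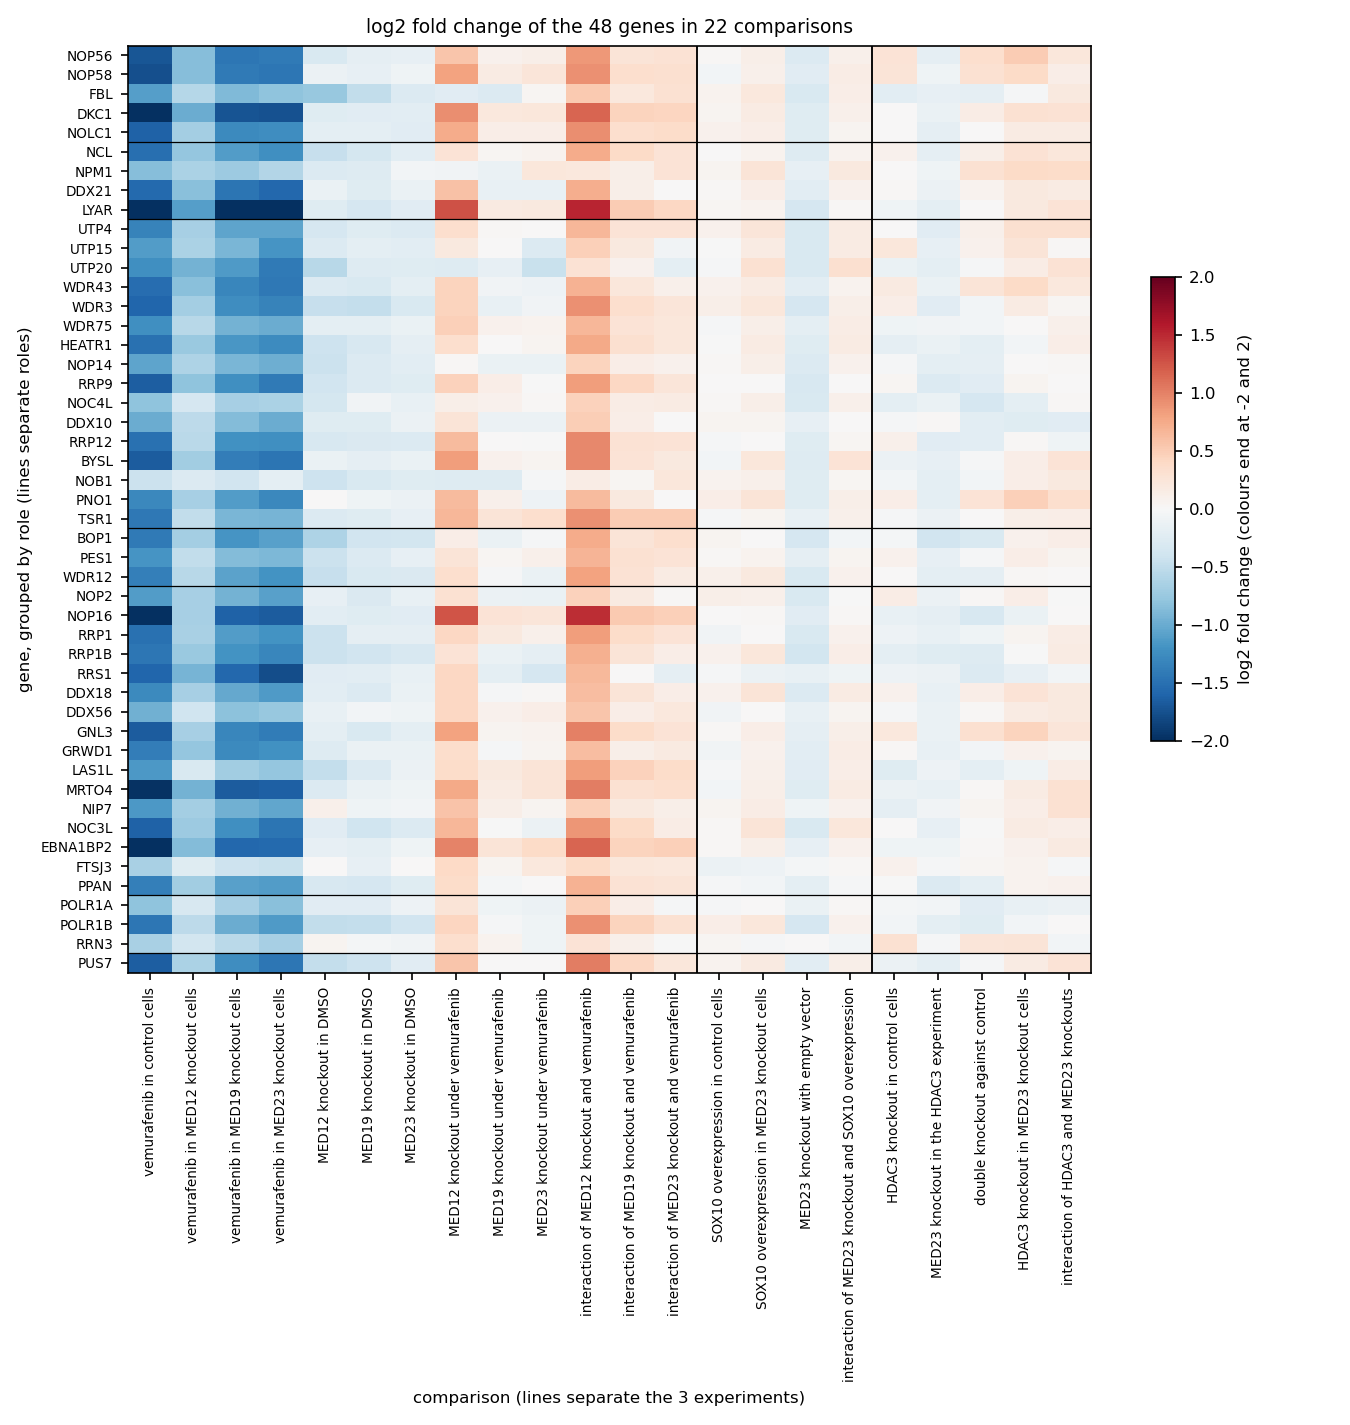
log2 fold change (colour, red higher and blue lower, ending at -2 and 2) of the 48 genes (rows, grouped by role) in 22 comparisons (columns, grouped by experiment). The 4 vemurafenib columns at the left are blue for all 48 genes, and the SOX10 and HDAC3 columns are pale.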

How the data were processed

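Stranded mRNA libraries were made from A375 cells, per the labels' protocols. For each experiment the authors deposited 1 table with raw read counts per gene. Reads were processed with bcl2fastq, HISAT2 on hg38 and HTSeq, per the submitters' processing notes; for versions, annotation and strand setting, nothing is stated in these sources. Identifiers were matched to GENCODE 29. Each table was fitted on all genes with edgeR 4.0.16 in R 4.3.3: filterByExpr (minimum count 10, minimum total 15), TMM scaling, 1 mean per group, a quasi-likelihood test, both guides weighted equally, and Benjamini-Hochberg adjustment over all genes tested. The SE of a log2 change is its size over the root of its F statistic. CPM uses TMM-scaled totals. The 48 genes and the gene lists were chosen with earlier results of these data known. The rule for named genes was the 3 highest and 3 lowest changes among called members of each comparison, MYC, the manipulated genes, and the lowest and highest called gene of each other list under vemurafenib in control cells; further members were named to describe a role, after their values were seen.

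Alternatives were DESeq2 1.42.0 and its size factors, no low-count filter, a 1.5-fold minimum, each guide alone, a replicate block and leaving out each replicate. To check whether replicate numbers pair libraries, deviations from group means were correlated between same-numbered libraries; the averages were 0.006, 0.043 and 0.214 in the 3 experiments. Every correlation was above 0.1 for MED23 knockout with the double knockout (0.152 to 0.332) and with HDAC3 knockout (0.154 to 0.44). The same held for MED12 guide 1 in DMSO with MED12 guide 2 under vemurafenib (0.151 to 0.422). Single correlations ran from -0.328 to 0.483 in the Mediator experiment, where 40 of 273 were above 0.1. In the HDAC3 experiment they ran from -0.081 to 0.568, and 13 of 18 were above 0.1. These values do not settle whether the numbers pair libraries, and the main tests did not use the numbers. Counts of replicate libraries of a group differed by 1.42 times the Poisson variance or more, so none was a copy of another in its group. Libraries of different groups were not compared in this way. The check cannot tell repeat preparations of the same RNA from separate samples. On simulated data, 99 of 100 genes or more were recovered at each of 1.5-fold and 2-fold in the 3 comparisons simulated (27453, 18009 and 21139 genes). Of the unchanged genes tested, 6 of 24046, 17 of 17297 and 14 of 20188 were called. Only 200 genes were changed in each simulation, far fewer than were called with vemurafenib. Changes below 1.5-fold were not simulated, so the simulation does not cover the smaller changes called here.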

Additional observations from a re-analysis of the deposited data

Results flagged for a closer look

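A response that differed between 2 backgrounds, by a test of the difference itself, was found for the 48 genes in 5 comparisons. The vemurafenib response differed from that of control cells for 48 genes with MED12 loss (24.9% of all genes had a positive and 24.2% a negative interaction). It differed for 44 with MED19 loss (17.4% and 15.2%) and for 39 with MED23 loss (18.5% and 16.2%). The response to SOX10 overexpression differed between MED23 knockout and control cells for 13 genes (7.64% and 7.04%), and for 2 without replicate 2 or without replicate 3. The response to HDAC3 loss differed between these backgrounds for 22 genes (10.0% and 10.5%), for 4 without replicate 2 and for 12 without replicate 3.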

How the results depend on the processing

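Each of the 22 counts of called members was recomputed under its alternatives, 200 in all: 169 kept the direction and lay within 1.5 times the main count, 27 moved further and 4 changed the direction of the majority. The cause of these changes was not tested, apart from the 1.5-fold minimum, which removes small changes by its construction. With that minimum, MED12 loss gave 2 calls in DMSO and 14 under vemurafenib, and 0 calls were left in the comparisons of MED19 and MED23 loss, their interactions with vemurafenib, and all SOX10 and HDAC3 comparisons. The majority turned with guide 2 alone for MED19 loss under vemurafenib (28 calls), with guide 1 alone for MED23 loss under vemurafenib (29), and without replicate 2 for SOX10 in control cells (1) and HDAC3 knockout in control cells (8). Without the low-count filter SOX10 in control cells gave 4 calls. Leaving out each replicate gave 1 to 4 calls for SOX10 in control cells, 2 to 13 for its interaction with MED23 loss, 8 to 16 for HDAC3 knockout in control cells, 6 to 33 for MED23 knockout in the HDAC3 experiment, 15 to 25 for the double knockout, 16 to 30 for HDAC3 knockout in MED23 knockout cells and 4 to 22 for the HDAC3 interaction. All 48 genes stayed lower under vemurafenib in the 4 backgrounds in each of these left-out fits. A replicate block gave 27 higher and 5 lower genes for HDAC3 knockout in MED23 knockout cells, where the numbers may pair the libraries. The block moved no count by over 1.5 times.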
